A study of Rattus norvegicus with 15 samples.

Results

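Brains of rats given mithramycin A after an intracerebral hemorrhage were compared with brains of sham-operated rats, to describe which transcripts were still at other levels than in sham after treatment. The comparison took every library of these groups that the count table held, which was 8 of its 11 libraries: 3 from hemorrhage with mithramycin A (ICH_MA, replicates 1, 2 and 3) and 5 from sham operation (Sham, replicates 1 to 5). Hemorrhage without the drug (ICH, replicates 1, 2 and 5) supplied the remaining 3 libraries and is given beside the comparison. The labels named 15 samples, and the other 4 were not analysed here. All animals were Sprague-Dawley rats, all groups shared 1 batch date, and brain tissue labelled as basal ganglia was taken 72 h after modelling. The way the hemorrhage was made, the dose, route and timing of mithramycin A, any vehicle given to Sham or ICH rats, and the age of the animals were not given in the sources used here. Separate rats per group are stated, so p-values measure the spread between animals together with that of tissue sampling.

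Intracerebral hemorrhage is bleeding into the brain, often into the basal ganglia. Blood and its breakdown products injure the surrounding tissue, resident glia become reactive and leukocytes enter, so the tissue at this stage holds another mixture of cells than before. Mithramycin A is an antibiotic that binds the minor groove of GC-rich DNA and is known to keep the transcription factor Sp1 from its sites. In bulk tissue, a lower value can mean fewer cells of a type or less RNA per cell, and these cannot be told apart here.

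Genes carry Ensembl rat gene IDs, and 0 of the 15094 IDs could be paired with a symbol from the files or from the reference table. The labelled tissue could therefore not be checked against marker genes, pathway lists could not be read, and genes are described by number, level and size of change, with 4 of them by ID. Library totals ran from 56393423 to 67733469 counts for Sham, and the ICH (58317912 to 65438000) and ICH_MA totals (57164791 to 66381416) lay within that range. A pair of libraries stood apart from their groups. Across genes, Sham replicate 1 correlated with the rest of its group at a mean Spearman rho of 0.9885, where the others had 0.9922 to 0.9931. ICH replicate 5 correlated with the Sham libraries at 0.9859, where ICH replicates 1 and 2 had 0.9651 and 0.9696. Results that rest on these libraries are given with and without them.

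Under mithramycin A, 748 genes were higher and 250 lower than in Sham, or 6.67% of 14963 (quasi-likelihood F test of edgeR, Benjamini-Hochberg adjusted p under 0.05). The rises, 5% of the genes tested, were the larger changes. Their log2 fold change had a median of 0.86 and quartiles of 0.48 and 1.47, with a median SE of 0.17. The falls, 1.67% of the genes tested, had a median of −0.36 and quartiles of −0.49 and −0.27, with a median SE of 0.08. Over all genes tested the median was 0.00 with a median SE of 0.10, a centre that TMM scaling, which takes most genes as unchanged, keeps near 0. Without Sham replicate 1 the comparison gave 798 rises and 540 falls. Without Sham replicate 2, 3, 4 or 5 there were 118, 107, 108 or 107 falls. Without ICH_MA replicate 1, 2 or 3 there were 125, 41 or 74. The falls thus depended on each library of both groups, and only the fit without Sham replicate 1 gave more of them. ICH replicate 5 lies outside both groups but shares the filter, the scaling and the spread per gene with them. Without it the comparison gave 1151 rises and 424 falls.

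**Figure D1:**
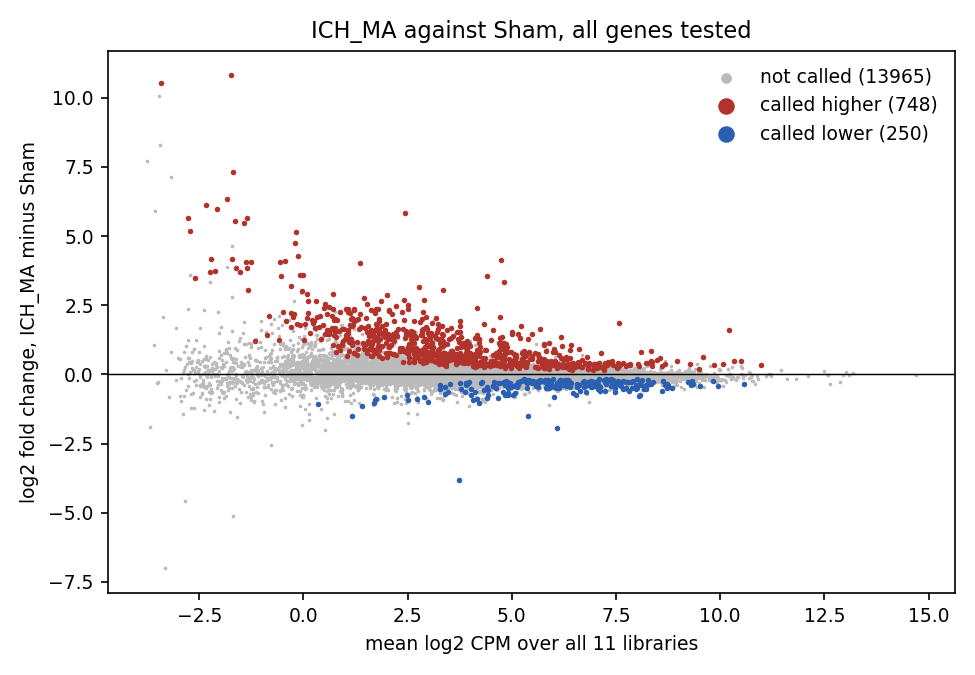
Each point is 1 of the 14963 genes tested, placed by its mean log2 CPM over the 11 libraries (horizontal) and its log2 fold change of ICH_MA minus Sham (vertical), with the 748 genes called higher in red and the 250 called lower in blue. Large rises lie among genes of low abundance, and the falls lie close to 0 among abundant genes.

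The rises and falls differed in size class. Of the 748 rises, 245 were under 1.5-fold, 177 from 1.5-fold to 2-fold, 232 from 2-fold to 4-fold, 56 from 4-fold to 8-fold and 38 over 8-fold. Of the 250 falls, 207 were under 1.5-fold and 35 from 1.5-fold to 2-fold. A further 7 fell from 2-fold to 4-fold and 1 by over 8-fold, a gene whose ICH_MA and Sham libraries overlapped. At least a doubling was thus fitted for 43.6% of the rises, and at least a halving for 3.2% of the falls.

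Abundance differed in the same way. The median of the mean level over all libraries was 11.2 CPM (counts scaled to a common library total) among the rises and 72.5 CPM among the falls, against 24.5 CPM over all genes tested. Of the 3720 genes from 1 to 10 CPM, 8.82% rose and 0.376% fell. Of the 2195 genes over 100 CPM, 3.1% rose and 4.51% fell. Log2 fold changes had a median SE of 0.20 in the former class and of 0.07 in the latter. Small changes could therefore be called among abundant genes and not among rare ones, and the median rise among called genes was 1.36 in the former class and 0.37 in the latter. Among the 573 genes under 1 CPM, 18 rose and 0 fell, with a median SE of 0.38.

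The largest rises were of genes with low levels in Sham. The 94 genes that rose at least 4-fold had median levels of 0.499 to 0.565 CPM in the 5 Sham libraries. Their medians were 4.89, 3.02 and 1.96 CPM in ICH_MA replicates 1, 2 and 3. In ICH replicates 1, 2 and 5 the same genes had medians of 9.27, 6.35 and 2.50 CPM. All ICH_MA libraries lay above all Sham libraries, and ICH replicate 5 lay within the ICH_MA range. These genes were chosen by the ICH_MA and Sham values, so the levels of those groups are a description.

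The 232 genes that rose from 2-fold to 4-fold had medians of 2.58 to 2.92 CPM in Sham, and 8.22, 7.14 and 6.68 CPM in ICH_MA replicates 1, 2 and 3. ICH replicates 1 and 2 stood higher, at 11.5 and 10.9 CPM, and ICH replicate 5 stood below every ICH_MA library, at 5.80 CPM. The 43 genes that fell at least 1.5-fold had medians of 24.6 CPM in Sham replicate 1 and 28.2 to 37.4 CPM in the other Sham libraries. Their medians were 16.01 to 17.44 CPM in ICH_MA and 16.4 to 19.2 CPM in ICH. For these falls the ICH_MA and ICH ranges overlapped.

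The called genes took a modest part of the RNA. The rises made up 2.67% ± 0.08 of Sham counts (SD, n = 5) and 4.04% ± 0.06 of ICH_MA counts (SD, n = 3). The falls made up 3.57% ± 0.17 of Sham counts and 2.84% ± 0.11 of ICH_MA counts. In ICH the shares were 4.43% ± 0.74 for the rises and 2.92% ± 0.10 for the falls (SD, n = 3). The ICH mean did not enter the comparison that chose these genes, but the ICH libraries shared its filter, scaling and spread per gene. The ICH libraries differed most in the rises, with 4.84%, 4.88% and 3.57% in replicates 1, 2 and 5.

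Only 7 of the genes tested had no count in any Sham library, and these could pass the filter only through ICH or ICH_MA. Of them, 2 rose in ICH_MA. One of these, ENSRNOG00000007886, was counted 509, 29 and 11 times in ICH_MA replicates 1, 2 and 3. The levels there were 8.35, 0.508 and 0.162 CPM, a mean of 3.01 ± 4.63 CPM (SD, n = 3). Most of these counts were in replicate 1. With no Sham count and few ICH counts, the gene could pass the filter only through its ICH_MA counts. Its detection in every ICH_MA library and its direction against Sham were therefore fixed by the filter. Against a Sham floor of 0.00959 CPM, which 3 counts over the whole group would give, the mean was at least 314-fold higher (edgeR adjusted p = 0.0351). ICH replicates 1, 2 and 5 held 7, 0 and 0 counts. The test of ICH_MA against ICH did not pass for this gene (edgeR adjusted p = 0.22). Of 19 alternatives, 8 lost the call against Sham, and the adjusted p over all of them ran from 0.00931 to 0.071. A stricter filter of at least 1 CPM removed this gene and gave no result for it. The fits without ICH_MA replicate 1 or 2 lost it (edgeR adjusted p = 0.071 and 0.0647), as did those without Sham replicate 2, 3, 4 or 5 (0.0656, 0.0648, 0.0624 and 0.0629) or ICH replicate 1 (0.0638). Without ICH_MA replicate 1 the mean was 0.335 CPM, at least 34.9-fold over the same floor. With only ICH_MA and Sham in the model the call was lost as well (edgeR adjusted p = 0.0512).

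The other rise given by ID, ENSRNOG00000011205, had 0 counts in Sham replicates 1 to 4 and 6 counts in Sham replicate 5. ICH_MA replicates 1, 2 and 3 held 478, 99 and 56 counts, or 7.84, 1.74 and 0.822 CPM. ICH replicates 1, 2 and 5 held 79, 71 and 50 counts. The ICH_MA libraries lay above all Sham libraries, and ICH_MA replicate 3 lay among the ICH libraries. The log2 fold change of ICH_MA against Sham was 7.33 with SE 1.02 (edgeR adjusted p = 0.00282). That of ICH against Sham was 5.66 with SE 1.04 (edgeR adjusted p = 0.00316). The difference between ICH_MA and ICH was 1.67 with SE 0.83 on the log2 scale and did not pass (edgeR adjusted p = 0.362). The call against Sham held in all 20 alternatives run, with adjusted p from 2.49e-05 to 0.043. The size was less certain, with log2 fold changes of 5.89 without ICH_MA replicate 1 and 10.77 without Sham replicate 5, which leaves Sham at 0 counts so that the latter value depends on the prior count.

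Among the falls, ENSRNOG00000043465 had 76.7, 73.2, 183, 158 and 265 CPM in Sham replicates 1 to 5. ICH_MA replicates 1, 2 and 3 had 37.3, 53.9 and 27.6 CPM, and ICH replicates 1, 2 and 5 had 44.4, 24.3 and 52.3 CPM. Every ICH_MA and ICH library lay below every Sham library, while the Sham libraries themselves ran from 73.2 to 265 CPM. The log2 fold change was −1.93 with SE 0.45 in ICH_MA (edgeR adjusted p = 0.0286) and −1.91 with SE 0.45 in ICH (edgeR adjusted p = 0.0113). The difference between ICH_MA and ICH was −0.03 with SE 0.47. Of 20 alternatives, 7 lost the call in ICH_MA, and the adjusted p over all of them ran from 0.00101 to 0.209. Among these were the fits without Sham replicate 3, 4 or 5 (edgeR adjusted p = 0.0612, 0.0572 and 0.0522). The fits without ICH_MA replicate 1, 2 or 3 lost it too (edgeR adjusted p = 0.0898, 0.0678 and 0.115).

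ENSRNOG00000007607 had 48.5, 51.2, 85.5, 79.5 and 129 CPM in Sham replicates 1 to 5. Its levels were 26.97, 33.89 and 22.47 CPM in ICH_MA replicates 1, 2 and 3, and 28.7, 17.37 and 32.03 CPM in ICH replicates 1, 2 and 5. Here too Sham replicate 5 was highest, and no ICH_MA or ICH library reached the lowest Sham library. The log2 fold change was −1.50 with SE 0.33 in ICH_MA (edgeR adjusted p = 0.0213) and −1.59 with SE 0.33 in ICH (edgeR adjusted p = 0.0055). Of 20 alternatives, 4 lost the call in ICH_MA, and the adjusted p over all of them ran from 0.000789 to 0.147. These included the fits without ICH_MA replicate 1, 2 or 3 (edgeR adjusted p = 0.0748, 0.0599 and 0.0894).

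**Figure D2:**
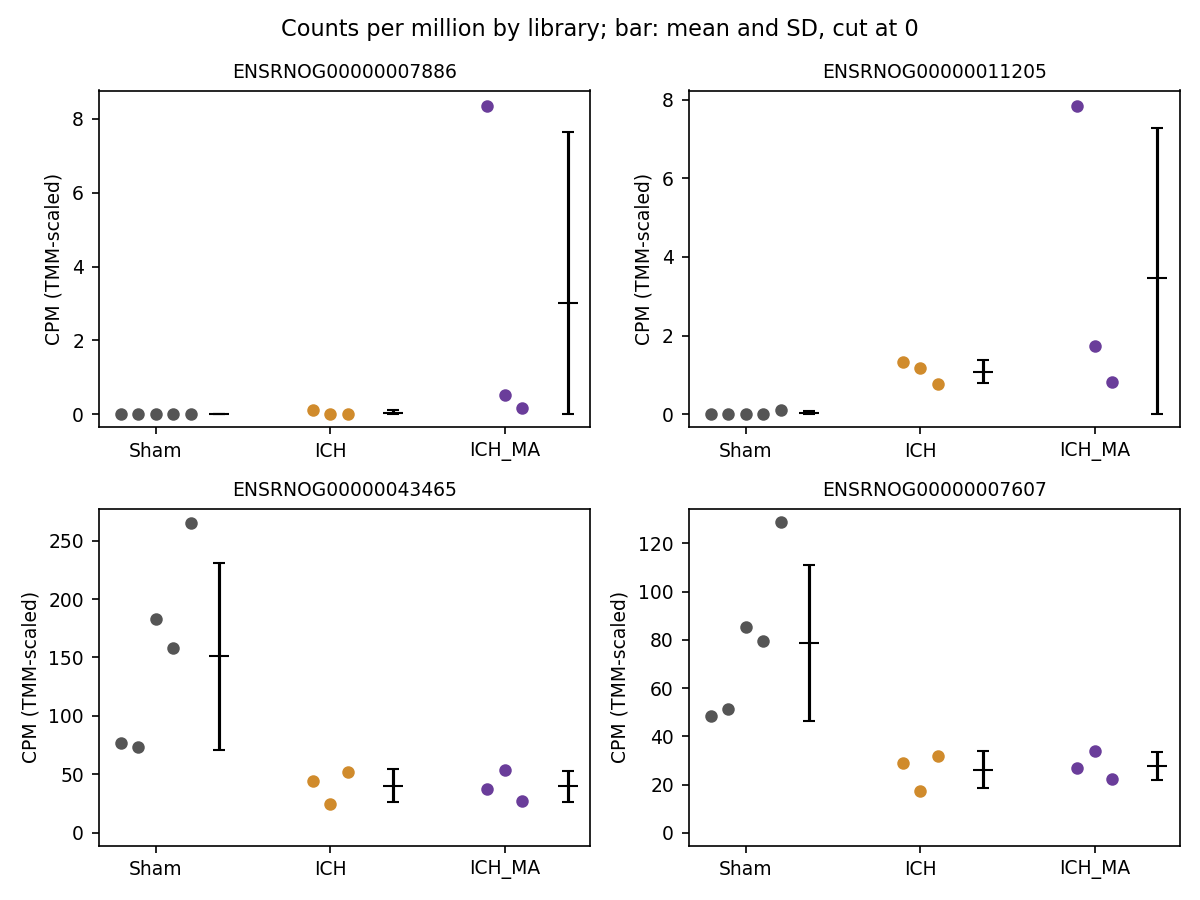
Levels in CPM (vertical, from 0) of the 4 genes given by ID in each Sham, ICH and ICH_MA library (points), with the group mean and SD beside them. In both rises ICH_MA replicate 1 stands far above the other ICH_MA libraries, at 8.35 and 7.84 CPM, and in both falls all ICH_MA and ICH libraries lie below the lowest Sham library.

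Across the called genes the groups rarely overlapped. All 3 ICH_MA libraries lay above all 5 Sham libraries in 736 of the 748 rises, and below them in 226 of the 250 falls. Over all genes tested the groups were apart in 11.8% as rises and in 7.2% as falls. The called genes were chosen by these same values, so libraries left out of the choice are the more direct measure. For each of the 8 libraries, genes were called again without it, and the library was then set against the Sham libraries that remained. Those Sham libraries also took part in the call, so differences from them and shares beyond all of them are partly fixed by the choice. The shares over all genes tested have no such choice behind them.

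The rises were also seen in ICH_MA libraries that had no part in the call. Without ICH_MA replicate 1, 334 genes rose, and their median log2 difference from Sham in that replicate was 1.13, against 1.07 in the ICH_MA libraries used. It was above every Sham library in 96.1% of them, where it was so in 22.2% of all genes tested. ICH_MA replicate 2 had a median of 1.15 over 307 rises called without it, against 1.35 in the libraries used, with 98.7% above every Sham library against 26.2% of all genes. ICH_MA replicate 3 had a median of 1.05 over 431 rises, against 1.33 in the libraries used, with 97.9% above every Sham library against 26.1% of all genes.

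The falls were seen again at smaller size, in all 3 left-out ICH_MA libraries. The left-out medians were −0.23, −0.39 and −0.31 in ICH_MA replicates 1, 2 and 3, over 125, 41 and 74 falls. The ICH_MA libraries used for those calls had medians of −0.44, −0.54 and −0.47. The left-out library was below every Sham library in 69.6%, 95.1% and 86.5% of the falls, where it was so in 21%, 23.4% and 22.5% of all genes tested.

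Left-out Sham libraries gave the background, and Sham replicate 1 departed from it. Sham replicates 2 to 5 had medians of −0.02 to 0.06 over the rises and −0.04 to 0.04 over the falls. Sham replicate 1 had a median of 0.14 over 798 rises and −0.23 over 540 falls called without it, where the ICH_MA libraries had 0.80 and −0.36. It lay below all other Sham libraries in 83% of those falls, where it was so in 26.2% of all genes tested. For Sham replicates 2 to 5 the share was 13.9% to 22.9%. Over the rises, Sham replicate 1 lay above all other Sham libraries in 46.7%, where it was so in 26.8% of all genes tested. For Sham replicates 2 to 5 that share was 16.4% to 28.8%, against 15.2% to 21.1% of all genes tested. Sham replicate 1 thus lay on the ICH_MA side for the falls and, less strongly, for the rises. Its part in the comparison was measured by leaving it out, and what set it apart was not tested.

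**Figure D3:**
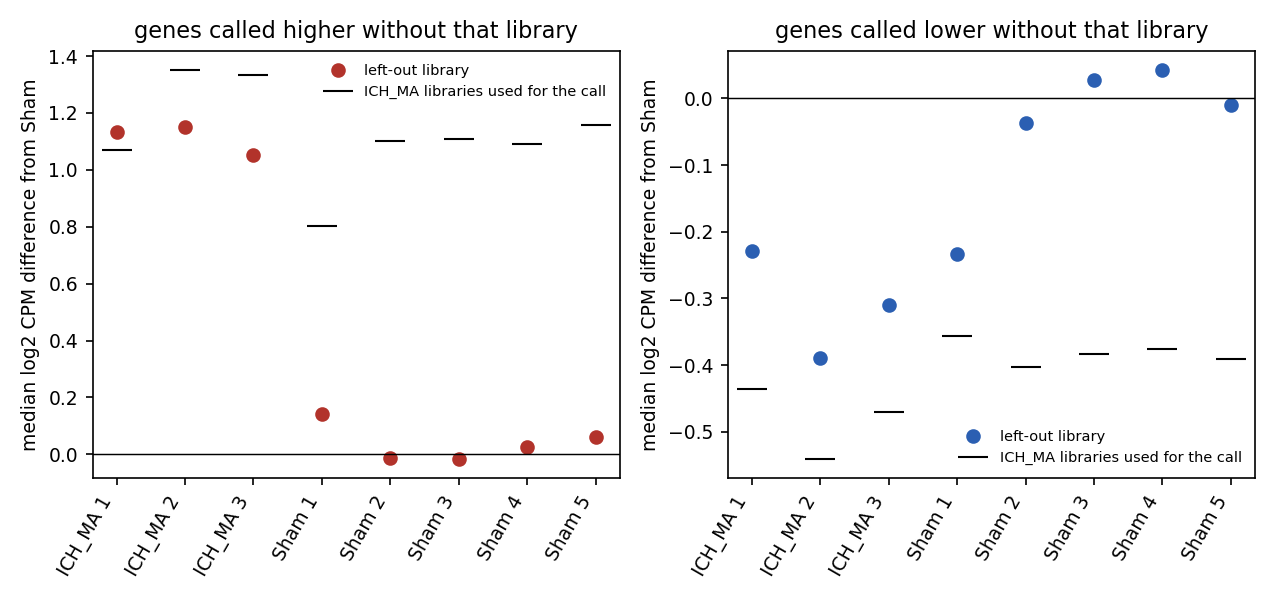
Points give, for each of the 8 libraries, the median log2 CPM difference from the Sham libraries over genes called higher (left) or lower (right) without that library, and dashes give the same in the ICH_MA libraries used for the call. ICH_MA libraries left out keep medians of 1.05 to 1.15 in the rises, and Sham replicate 1 has a median of −0.23 in the falls.

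The genes called differed in how far they withstood the loss of a library. Of the 748 rises, 247 (33%, or 1.65% of the genes tested) were called in all 8 fits that left out 1 ICH_MA or Sham library. These 247 had a median log2 fold change of 1.34 with quartiles of 0.83 and 1.82, and 169 of them rose at least 2-fold. The 501 other rises had a median of 0.70. Of the 250 falls, 22 (8.8%, or 0.147% of the genes tested) were called in all 8 fits, with a median of −0.50. The 228 others had a median of −0.34. None of those 22 fell by 2-fold. A call in all 8 fits favours large changes, so the larger medians of the 247 and the 22 are partly fixed by that choice. Under every other setting run as well, 102 of the 247 rises and 3 of the 22 falls were called.

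ICH is given beside these values. In ICH against Sham, 2250 genes (15%) were higher and 1412 (9.44%) lower (edgeR, adjusted p under 0.05), which were 24.5% of the genes tested. Both comparisons use the same Sham libraries, so their calls and fold changes are not independent, and what follows describes each gene's values side by side. Called in the same direction in both, and so still changed under the drug, were 660 rises, which were 88.2% of the ICH_MA rises and 29.3% of the ICH rises. Their median log2 fold change was 0.91 in ICH_MA, with quartiles of 0.52 and 1.52, and 1.16 in ICH, with quartiles of 0.64 and 2.02. At least 4-fold rises among them numbered 88 in ICH_MA and 169 in ICH. The falls called in both numbered 185, which were 74% of the ICH_MA falls and 13.1% of the ICH falls. Their medians were −0.37 in ICH_MA and −0.38 in ICH.

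The numbers called in both moved with the libraries that stood apart and with the tool. Without Sham replicate 1 there were 700 rises (87.7% of the ICH_MA rises, 30.6% of the ICH rises) and 465 falls (86.1% and 23.8%). Without ICH replicate 5 there were 1037 rises (90.1% and 39.3%) and 303 falls (71.5% and 16.4%). Without both of these libraries there were 1143 rises and 579 falls, and with DESeq2 on all libraries 963 rises and 523 falls.

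A further 1590 rises and 1227 falls were called in ICH and not in ICH_MA. These were smaller changes than those called in both. Their median log2 fold changes were 0.55 and −0.33 in ICH, and 0.25 and −0.16 in ICH_MA. The genes were sorted by a call in ICH and none in ICH_MA, so these contrasts are partly fixed by the sorting. In ICH_MA, 710 of these rises and 530 of these falls had the same direction at an unadjusted p under 0.05 (edgeR), the level that 22.5% of all genes tested passed in either direction. The absence of a call in ICH_MA does not show a return to Sham.

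Genes called in ICH_MA and not in ICH comprised 88 rises and 65 falls. The rises had medians of 0.56 in ICH_MA and 0.18 in ICH, and the falls had −0.33 and −0.15. Larger medians in ICH_MA are partly fixed here, since the genes were sorted by a call in ICH_MA and none in ICH. In ICH, 34 of these rises and 29 of these falls had the same direction at an unadjusted p under 0.05 (edgeR), the level that 37.7% of all genes tested passed in either direction. No gene was called in opposite directions (0 with edgeR).

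**Figure D4:**
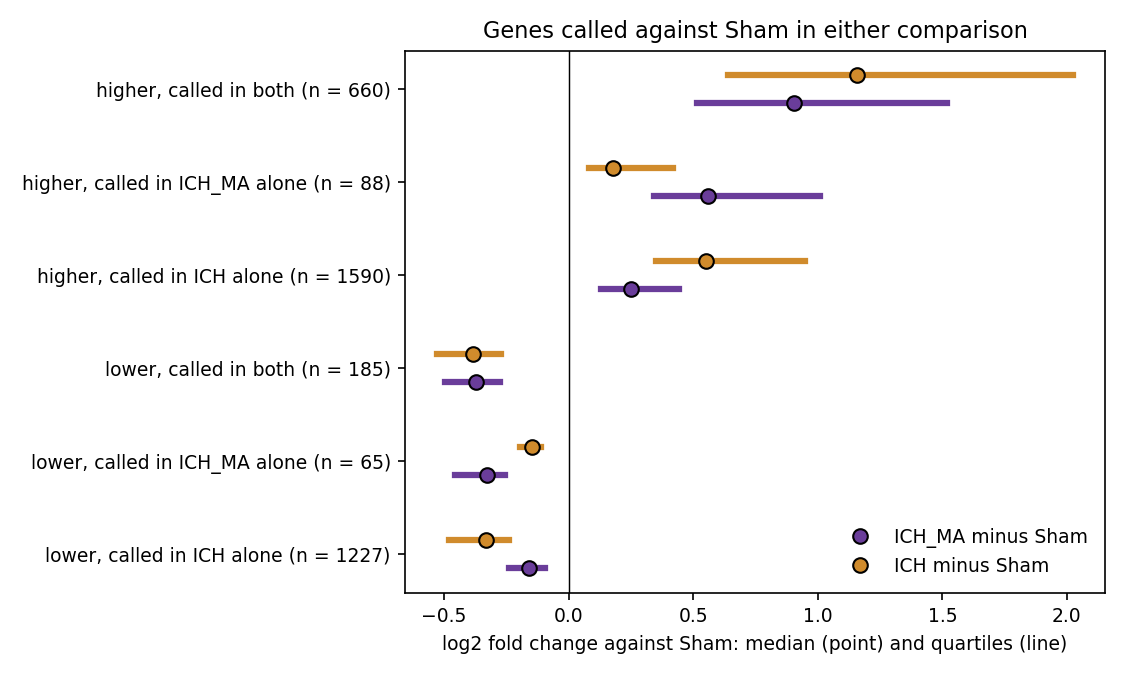
Log2 fold changes against Sham (horizontal; point for the median, line for the quartiles) in ICH_MA and in ICH, for genes called in both comparisons, in ICH_MA alone and in ICH alone. The 660 rises called in both have medians of 0.91 in ICH_MA and 1.16 in ICH, and the 185 falls called in both have −0.37 and −0.38.

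Whether a gene differed between the treated and the untreated hemorrhage was tested directly. None of the 998 genes called in ICH_MA against Sham passed in ICH_MA against ICH, nor did any other gene (edgeR, 0 of 14963 genes, 0%, smallest adjusted p = 0.176). At an unadjusted p under 0.05, 257 of the 748 rises and 44 of the 250 falls differed, where 15.5% of all genes tested did. The ICH_MA values that chose the genes also enter this test, so these counts are partly fixed by the choice. Of the rises that differed, 199 were among the 660 called in both and 58 among the 88 called in ICH_MA alone. Of the falls, 14 were among the 185 called in both and 30 among the 65 called in ICH_MA alone. The median log2 difference of ICH_MA minus ICH was −0.19 over the rises, with a median SE of 0.19, and −0.02 over the falls, with a median SE of 0.09. DESeq2 called 477 genes between ICH_MA and ICH, and limma-voom called 0. Of the 1130 rises against Sham with DESeq2, 74 were called nearer to Sham in ICH_MA than in ICH, and 42 farther. Of its 700 falls, 4 were nearer and 18 farther.

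The outcome of that test with edgeR also depended on ICH replicate 5. Without it, 429 of the then 1151 rises and 24 of the then 424 falls of ICH_MA against Sham also passed in ICH_MA against ICH. Of those rises, 409 (35.5% of the 1151) were nearer to Sham in ICH_MA than in ICH, and 20 were farther. Of the falls, 16 were nearer to Sham and 8 farther. The ICH mean in this fit came from replicates 1 and 2, whose rises were larger than those of replicate 5, as given below. The rises then had medians of 0.68 in ICH_MA and 1.04 in ICH, and the falls had −0.32 and −0.34. Over the 748 rises called with all libraries, ICH replicates 1, 2 and 5 had median log2 differences from Sham of 1.14, 1.17 and 0.63, and ICH_MA replicates 1, 2 and 3 had 0.89, 0.84 and 0.83. Over the 250 falls the values were −0.32, −0.37 and −0.27 in ICH and −0.31, −0.38 and −0.36 in ICH_MA. In these medians ICH replicate 5 was nearer to Sham than any ICH_MA library, over genes that were chosen for a difference between ICH_MA and Sham. By Spearman correlation over all genes it stood level with them, at 0.9859 with Sham against 0.9847, 0.9859 and 0.9860 in ICH_MA replicates 1, 2 and 3.

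By the median spread over genes, the ICH_MA libraries were close to each other. They were less so in the largest rises. The 94 genes that rose at least 4-fold had medians of 4.89, 3.02 and 1.96 CPM in ICH_MA replicates 1, 2 and 3. Over all genes tested, the median SD of log2 CPM was 0.11 in ICH_MA (n = 3), 0.13 in Sham (n = 5) and 0.15 in ICH (n = 3). An SD from 3 libraries tends to come out lower than one from 5, so ICH_MA and Sham are not ranked by it. The median SD of log2 CPM over the 748 rises was 0.15 in ICH_MA, 0.17 in Sham and 0.34 in ICH. Over the 250 falls it was 0.09 in ICH_MA, 0.10 in Sham and 0.10 in ICH. The called genes were chosen for differences large against the spread, so small SDs in ICH_MA and Sham are partly fixed by the choice. Even so, with 3 libraries each one mattered to the count. Leaving out ICH_MA replicate 1, 2 or 3 gave 459, 348 or 506 called genes in place of 998. Leaving out Sham replicate 2, 3, 4 or 5 gave 570, 545, 577 or 569.

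**Figure D5:**
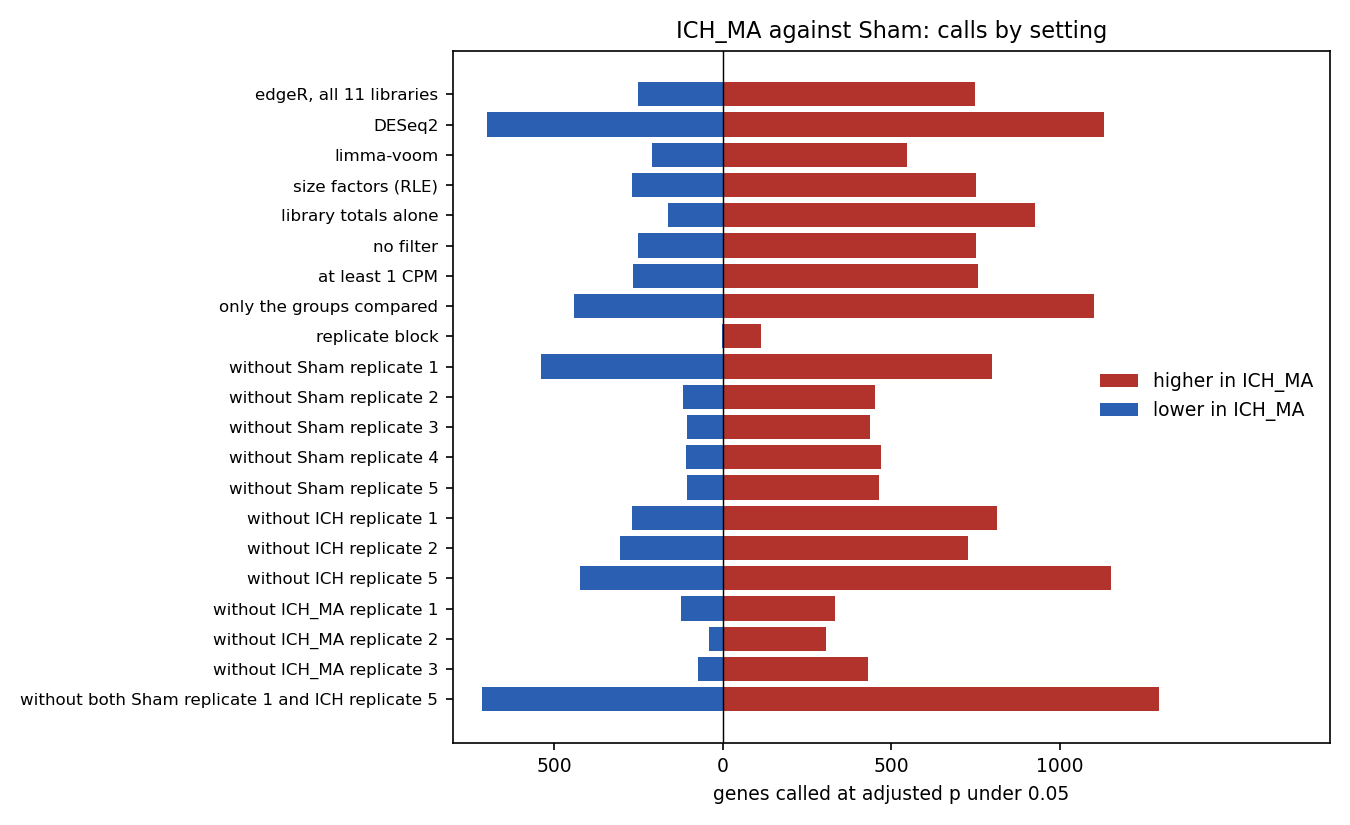
Number of genes called higher (to the right) and lower (to the left) in ICH_MA against Sham at an adjusted p under 0.05, under each setting of the analysis. With edgeR and all 11 libraries there are 748 and 250, without Sham replicate 1 there are 798 and 540, and without ICH_MA replicate 2 there are 307 and 41.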

How the data were processed

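RNA of rat brain tissue was sequenced. The deposited table holds whole-number counts per gene, without normalization, made by the authors. Build mRatBN7.2 and the tools RSEM 1.3.1, Bowtie2 and DESeq2 1.4.5 are named per the submitters' processing notes. What each did, the annotation, rounding of RSEM estimates, use of strand and filters were not given in the sources used here. Counting may have split reads of near-identical, overlapping or antisense genes between IDs.

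Columns were matched to samples by library name. filterByExpr (minimum count 10, minimum total 15) kept 14963 genes and removed 131. TMM scaling and 1 quasi-likelihood model of all 11 libraries, with a mean per group, were run in edgeR 4.0.16 (R 4.3.3), with Benjamini-Hochberg adjustment over all genes tested. The design had assumed columns for all 15 labelled samples. SEs came from the F test. CPM used TMM-scaled totals, and log2 CPM a prior count of 2. Intervals and floors cover counting error only. On simulated counts for ICH_MA against Sham (14941 genes tested), 80% of 100 genes changed 2-fold and 33% of 100 changed 1.41-fold were recovered. Of the 118 calls, 5 were false. No other genes were changed, rises and falls were equal in number, and ICH had no effect. The data differ in each of these, so the rates need not hold for them.

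Genes given by ID are the 2 largest rises and 2 largest falls by log2 fold change among called genes with no overlap of the groups and at least 1 CPM in the higher group (723 rises and 226 falls qualified). The comparison, the rule and the 25 process and 19 cell type lists were chosen with earlier results of these data known. The reference table held 47357 genes and no Ensembl ID, so these 44 lists could not be tested. Alternatives were DESeq2 1.42.0, limma-voom (limma 3.58.1), other scalings and filters, fewer libraries and a replicate block.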

Additional observations from a re-analysis of the deposited data

Results flagged for a closer look

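Among 11 measures compared over the 5 Sham libraries, 3 had 1 library far from the rest, its gap to the nearest of the others exceeding 0.71 of the range. Chance marks about 1 in 20 such groups when values are normally distributed, and the measures are not independent. One of them, the level of ENSRNOG00000007886, was 0 in all Sham libraries and could not be flagged. Sham replicate 1 had 3.27% of its counts in genes that fell in ICH_MA, where the other Sham libraries had 3.59% to 3.71%. It correlated with the rest of its group at a mean Spearman rho of 0.9885, where the others had 0.9922 to 0.9931. Sham replicate 5 had 0.109 CPM of ENSRNOG00000011205, a level of 6 counts, and the other Sham libraries had 0. With those at 0, any count in replicate 5 would have been flagged, so this flag was fixed by the zeros.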

How the results depend on the processing

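The number of genes called in ICH_MA against Sham was 998, and it was 1830 with DESeq2, 1541 with the ICH libraries out of the model, 2008 without both Sham replicate 1 and ICH replicate 5 (chosen after seeing the data), and 348 to 1575 with 1 library left out. With library totals alone 925 genes were higher and 163 lower, 85% higher against 74.9% with TMM, while no scaling moved the median of all genes by over 0.1 on the log2 scale. ICH against Sham gave 3662 genes, 1992 to 4484 with 1 library left out and 4940 without both those libraries. ICH_MA against ICH gave 0 genes, and 477 with DESeq2, 1384 without both Sham replicate 1 and ICH replicate 5, and 0 to 1137 with 1 library left out. For the changes with DESeq2 and with the groups alone, the cause was not tested. Same-numbered libraries did not deviate together (8 pairs, r from −0.16 to 0.09, 0 over 0.1), and 1 of 6 Sham and ICH_MA libraries correlated best with its own number. With the replicate number as a block, which uses up degrees of freedom, ICH_MA against Sham had 117 genes called, ICH against Sham 1914, and ICH_MA against ICH 0. The block also ended the calls of ENSRNOG00000043465 (log2 fold change −1.48, edgeR adjusted p = 0.209) and ENSRNOG00000007607 (−1.20, 0.147). No fold change of a gene given by ID reversed. Genes at few counts limit the depth: the median SE was 0.38 under 1 CPM.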
